A study of Sus scrofa with 8 samples.

Results

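MYF5, MYOD1, MYOG and MYF6 form the family of myogenic regulatory factors, and their detection and co-detection in single cells of the pig somite and myotome are described here. The members were the 4 rows with these symbols among the 21301 genes of each of 8 count matrices. A unique molecular identifier (UMI) marks 1 captured RNA molecule, and a cell was called positive for a gene where at least 1 UMI of it was counted. Of 74147 cells kept, 6783 were positive for at least 1 member. The libraries came from somites at embryonic day (E) 16, E18 and E21 and from the myotome at E28, either of Tibetan pigs (ZZ) or of DurocxTibetan pigs (DZ), a cross of both breeds. A library was made once per stage and breed, from a pool of 5 embryos of 1 sow, so cells of a library and embryos of a pool are not replicates. E16 and E18 are called early, E21 and E28 late, with 4 libraries in each period. The E28 stage and the myotome dissection cannot be told apart, and all E16 matrices, and no others, came from Cell Ranger 3.1.0.

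These 4 genes encode basic helix-loop-helix transcription factors that bind E-boxes as dimers with E proteins. MYF5 and MYOD1 commit somite cells to the muscle lineage, with MYF6 able to share that role. MYOG drives the differentiation of committed myoblasts into myocytes that fuse, and MYF6 is also active in differentiating and mature fibers. In the embryo, PAX3 and PAX7 mark the progenitors that precede them, and inhibitors such as the ID proteins and musculin oppose them.

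The 4 genes lie on the minus strand of Sscrofa11.1, each with 3 exons in RefSeq. MYF5 (ENSSSCG00000000937) occupies chr5:100753440-100755558 and MYF6 (ENSSSCG00000026533) chr5:100762918-100764771, with 7359 bases between them. MYOD1 (ENSSSCG00000013375) lies at chr2:41422522-41424236 and MYOG (ENSSSCG00000034654) at chr9:113783233-113785312. The stretch of 120 coding bases below, which encodes part of the helix-loop-helix, is shown because the likeness of the genes bears on how far their reads can be told apart. Capitals mark the 78 bases that are identical in all 4 genes. It lies at chr5:100755085-100755204 for MYF5, chr2:41423748-41423867 for MYOD1, chr9:113784908-113785027 for MYOG and chr5:100764245-100764364 for MYF6, and is written 5′ to 3′ on the coding strand.
MYF5: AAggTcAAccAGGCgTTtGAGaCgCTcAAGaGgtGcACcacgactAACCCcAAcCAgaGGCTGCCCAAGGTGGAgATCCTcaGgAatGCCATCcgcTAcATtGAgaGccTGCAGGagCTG
MYOD1: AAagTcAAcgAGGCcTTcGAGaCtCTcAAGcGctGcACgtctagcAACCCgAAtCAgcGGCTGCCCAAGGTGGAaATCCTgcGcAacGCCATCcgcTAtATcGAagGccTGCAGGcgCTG
MYOG: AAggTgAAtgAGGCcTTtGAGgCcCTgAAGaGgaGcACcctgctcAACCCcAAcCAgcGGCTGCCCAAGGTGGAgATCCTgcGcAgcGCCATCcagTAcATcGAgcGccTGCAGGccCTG
MYF6: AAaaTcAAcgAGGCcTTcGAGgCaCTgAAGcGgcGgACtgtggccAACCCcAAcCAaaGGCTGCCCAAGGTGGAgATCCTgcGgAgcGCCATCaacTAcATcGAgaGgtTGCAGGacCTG
Over this stretch, pairs of genes were identical at 75.8% (MYOD1 and MYF6) to 81.7% (MYOG and MYF6) of the bases. Across the whole transcripts the longest run shared by a pair was 17 to 25 bases, and in the last exon, which the 3′ libraries mainly sample, it was 6 to 17 bases. The RefSeq transcripts of MYOD1 and MYOG end with their coding sequence, and the 4 models differ in length from 675 to 1331 bases. The counts, however, were made on gene models of Ensembl release 98, which were not examined here, so how fully 3′ reads of each gene were counted is not known. Levels and shares of positive cells are therefore compared between samples and not ranked between genes, and a cell without a UMI of a gene is not shown to lack its RNA.

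The kept cells had library medians of 3405 to 6160.5 UMIs and totals of 39852689 to 57564889 UMIs per library. Barcodes with over 10% mitochondrial UMIs made up 39.2% of the E16-ZZ library and 1.05% to 9.15% of the other libraries. Pairs of libraries shared 13 to 38 barcodes. Intervals below are exact 95% binomial intervals and cover counting error only. Each stage of each breed had 1 pool, so the p-values rest on differences between libraries of unlike stage or breed and not on a spread between like pools.

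All 4 genes had higher levels late than early. Levels are UMIs of a gene scaled to 1000000 UMIs per library (CPM), in which fewer positive cells and less RNA per cell cannot be told apart. MYF5 measured 0.954 and 0.591 CPM at E16 (ZZ and DZ), 12.5 and 10.8 CPM at E18, 40.3 and 38.6 CPM at E21, and 78.1 and 195.5 CPM at E28. MYOD1 stayed at 0.0753 to 0.139 CPM in the 4 early libraries and reached 15.7 and 12.5 CPM at E21 and 62.8 and 89.9 CPM at E28. MYOG was counted with 0 and 1 UMI at E16, which is up to 0.0174 CPM, and measured 0.521 and 0.624 CPM at E18, 8.76 and 6.82 CPM at E21, and 20.4 and 38.3 CPM at E28. MYF5 was thus higher at each later stage in both breeds, whereas MYOD1 had 3 and 8 UMIs at E16 and 7 and 7 UMIs at E18. MYF6 measured 0.401 and 0.209 CPM at E16, 2.08 and 1.97 CPM at E18, 5.72 and 3.27 CPM at E21, and 5.84 and 19.7 CPM at E28. Early and late libraries did not overlap for any of the 4 genes, although the E28-ZZ level of MYF6 lay close to that of E21-ZZ. How many of all genes separate in this way was not counted, so whether the separation is particular to the family is not known. In the edgeR fit given next, 26.5% of 15119 genes were called higher late.

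**Figure D1:**
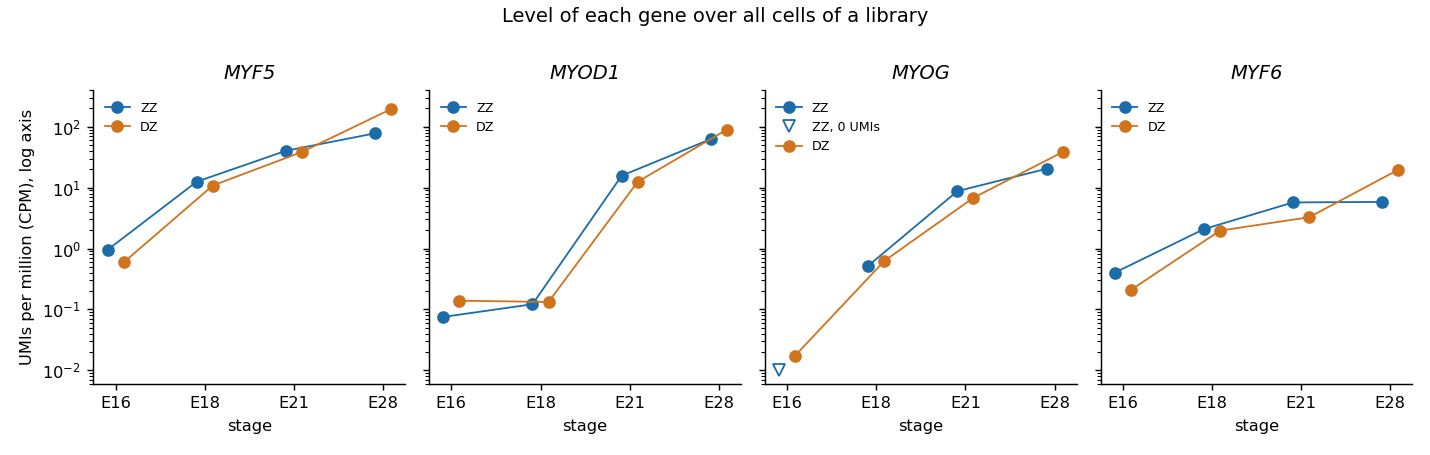
Level of MYF5, MYOD1, MYOG and MYF6 in CPM (log axis) over all cells of each library, by stage, with ZZ in blue and DZ in orange; each point is 1 library. MYOD1 lies between 0.0753 and 0.139 CPM at E16 and E18 and between 12.5 and 89.9 CPM at E21 and E28, and the open triangle marks the library with 0 UMIs of MYOG.

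In the edgeR quasi-likelihood fit of all 8 libraries, all 4 genes rose from early to late, beside 51.9% of 15119 genes called in either direction and 26.5% called higher. Each SE of an edgeR difference given here was calculated as the size of the log2 difference over the square root of its F statistic. The log2 difference was 4.41 ± 0.30 (SE, adjusted p = 1.15e-04) for MYF5, 7.89 ± 0.20 (adjusted p = 5.30e-06) for MYOD1 and 3.07 ± 0.45 (adjusted p = 0.00161) for MYF6. For MYOG it was 7.30 ± 0.32 (adjusted p = 2.98e-05), a value that depends on the prior count because of the near absence of UMIs at E16. Without the E16 libraries the differences were 2.50 for MYF5, 7.89 for MYOD1, 4.62 for MYOG and 1.77 for MYF6, and all 4 still passed the test.

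Between neighbouring stages the genes moved in different steps. From E16 to E18, where 4.71% of genes were called (2.04% higher and 2.67% lower), MYF5 rose by 3.80 ± 0.45 on the log2 scale (edgeR adjusted p = 0.0146) and MYOG passed the test on 1 UMI at E16 against 30 and 33 UMIs at E18 (edgeR adjusted p = 0.0189). MYF6 was higher by 2.60 ± 0.67 without passing the test (adjusted p = 0.0714), and MYOD1 differed by 0.03 ± 0.46 (adjusted p = 0.978). From E18 to E21, with 21.2% of genes called (10.7% higher and 10.4% lower), the largest log2 step of the 4 was that of MYOD1, at 6.68 ± 0.27 (edgeR adjusted p = 2.21e-04). MYOG rose by 3.69 ± 0.33 (edgeR adjusted p = 0.00183) and MYF5 by 1.65 ± 0.36 (adjusted p = 0.0228), and MYF6 was higher by 1.05 ± 0.56 (adjusted p = 0.223). From E21 to E28, with 8.55% called (4.32% higher and 4.23% lower), MYF5, MYOD1 and MYOG rose by 1.72, 2.41 and 1.84 on the log2 scale (edgeR adjusted p = 0.0357, 0.00288 and 0.0154), and MYF6 was higher by 1.45 ± 0.57 (adjusted p = 0.169). The directions of these called steps held under all 14 alternatives run for each, but several calls were lost. MYF5 from E16 to E18 no longer passed without E16-DZ (3.27), E18-ZZ (3.45) or E18-DZ (4.09), and MYF5 from E18 to E21 without any 1 of the 4 libraries of these stages (1.34 to 1.98). MYOG from E16 to E18 was lost without any 1 of its 4 libraries (4.85 to 7.63). MYF5 from E21 to E28 was lost without any 1 library of E18 or E21 or without E28-DZ (0.93 to 1.81, the lowest without E28-DZ), and MYOG without E21-DZ (1.43) or E28-DZ (1.44). The calls of MYOD1 after E18 and of MYOG from E18 to E21 were kept, and MYF6 passed in 3 alternatives from E16 to E18 and in 1 for each later step.

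Per-cell detection followed the levels. In ZZ, MYF5 was detected in 0.570% of cells at E16, 3.24% at E18, 6.71% at E21 and 11.3% at E28, and in DZ in 0.337%, 3.20%, 7.36% and 19.5%. MYOD1 was detected in 0.0368% to 0.0744% of cells in the early libraries, 2 to 7 cells each, and then in 2.63% (ZZ) and 2.71% (DZ) at E21 and in 9.25% and 12.8% at E28. MYOG was detected in 0 of 5436 cells of E16-ZZ, where a count of 0 allows a share of up to 0.0552% (3 counts of the total) and the exact interval reaches 0.0678%, and in 1 of 9506 cells of E16-DZ. At E18 it was detected in 0.280% (ZZ) and 0.308% (DZ) of cells, at E21 in 2.03% and 1.91%, and at E28 in 4.07% and 6.76%. The share of MYOG-positive cells thus went from at most 1 cell per library at E16 to 402 and 741 cells at E28. In ZZ, MYF6 was detected in 0.276% of cells at E16, 0.849% at E18, 1.68% at E21 and 2.10% at E28, and in DZ in 0.116%, 0.691%, 1.16% and 5.55%.

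RNA from other cells gives UMIs in cells that do not use a gene, so the same shares were counted in cells gated as endothelial, erythroid, neuron or neural crest and glia. Among 3735 such early cells, 6 had MYF5 (0.161%), 3 had MYOD1 (0.0803%), 1 had MYF6 (0.0268%) and none had MYOG. The early share of MYOD1 in all cells was thus not above that of cells not expected to use it, and at this level background and use cannot be told apart. In the early cells gated below as differentiated muscle, however, MYOD1 was found in 5 of 178 (2.81%, interval 0.918% to 6.43%), above its share in these types (0.0166% to 0.235%). Among 4691 late cells of these types, MYF5 was found in 0.853%, MYOD1 in 0.320%, MYOG in 0.384% and MYF6 in 0.234%. Most of these cells (2691 and 1258) were from E21. The E28 shares were 1.15% (ZZ) and 2.92% (DZ) for MYF5, 1.91% and 0.625% for MYOD1, 0.382% and 1.67% for MYOG, and 0 of 262 cells and 0.833% for MYF6. They were thus higher than the late shares except for MYOG and MYF6 in ZZ. In each late library the share of each gene was lower in these types than in all cells. These types had library medians of 3725 to 13354 UMIs per cell. Other gates held more. Among 20725 late cells gated as connective tissue, MYF5 was found in 6.09%, MYOD1 in 2.67%, MYOG in 0.806% and MYF6 in 1.12%. Of 70 late cells gated as macrophages, 4 had MYF5. Background and use were not told apart in these gates. None of 380 early cells gated as cardiac muscle had a UMI of any of the 4 genes, which allows shares up to 0.966% by the exact interval.

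The mean share of positive cells was 11.2% ± 5.87 late against 1.84% ± 1.60 early for MYF5 (SD, n = 4 libraries each, exact two-sided permutation p = 0.0286). For MYOD1 it was 6.85% ± 5.04 against 0.0623% ± 0.0176, for MYOG 3.69% ± 2.27 against 0.150% ± 0.167, and for MYF6 2.63% ± 1.99 against 0.483% ± 0.344, each with the same exact p of 0.0286, the smallest that 70 splits allow. Thinned to 1500 UMIs per cell, which removes differences in depth and leaves out shallower cells, MYF5 was detected in 0.154%, 0.119%, 1.31%, 1.34%, 3.54%, 3.40%, 6.23% and 13.2% of cells in the order of stage, ZZ before DZ. The stage order was thus kept by MYF5 at equal depth. The share of every member was again higher in each late than in each early library, which was not counted for genes outside the family. The means rested in part on E28-DZ, without which the difference in MYF6 was 1.17 in place of 2.14 percentage points (exact permutation p = 0.0286). With either all E16 or all E28 libraries left out, the 15 splits allow no exact p below 0.0667, so the threshold could not be passed.

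Most positive cells carried few molecules. MYF5 had a mean of 2.40 and 1.90 UMIs per positive cell at E18 and 3.01 and 3.87 at E28 (ZZ and DZ), with up to 26 UMIs in a cell. The fraction of MYF5-positive cells that held exactly 1 UMI fell from 52.8% and 57.1% at E18 to 37.8% and 26.9% at E28. MYF6 had 1 UMI in 74.0% to 85.1% of its positive cells in the late libraries and means of 1.21 to 1.43 UMIs. The shares of co-detection below thus depend on depth.

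Co-detection was rare at E16 and increased with stage. UMIs of at least 2 members were found in 3 cells of E16-ZZ and none of E16-DZ, in 68 and 56 cells at E18, 333 and 272 at E21 and, at E28, 783 and 1507. These were 0.731% and 0.595% of all cells at E18, 3.18% and 2.96% at E21 and, at E28, 7.92% and 13.8%. The late mean was 6.95% ± 5.08 against 0.345% ± 0.372 early (SD, n = 4 each, exact permutation p = 0.0286), a difference of 6.61 percentage points that was 4.34 without E28-DZ. All 4 members were found together in no early cell, in 26 and 16 cells at E21, and in 24 and 85 cells at E28. Among cells positive for any member, those with exactly 1 member made up 79.3% and 83.7% at E18, 62.4% and 67.1% at E21 and, at E28, 51.2% and 44.2%.

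The mixture of detection patterns changed with stage. MYF5 with MYOD1 and no other member was found in no cell at E16 or E18, in 64 (ZZ) and 66 (DZ) cells at E21 and, at E28, in 287 and 405. MYF5 with MYF6 and no other member was found in 42 and 36 cells at E18, in 71 and 34 at E21 and, at E28, in 74 and 248. MYF5 alone made up 71.6% and 72.0% of positive cells at E18, 49.3% and 56.1% at E21 and, at E28, 32.8% and 32.8%. MYOG without MYOD1 made up 7.62% and 8.16% at E18, 8.14% and 8.11% at E21 and, at E28, 3.99% and 4.41%. MYOD1 together with MYOG went from 1 cell in each E18 library to 15.8% and 13.2% at E21 and 21.0% and 23.0% at E28.

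**Figure D2:**
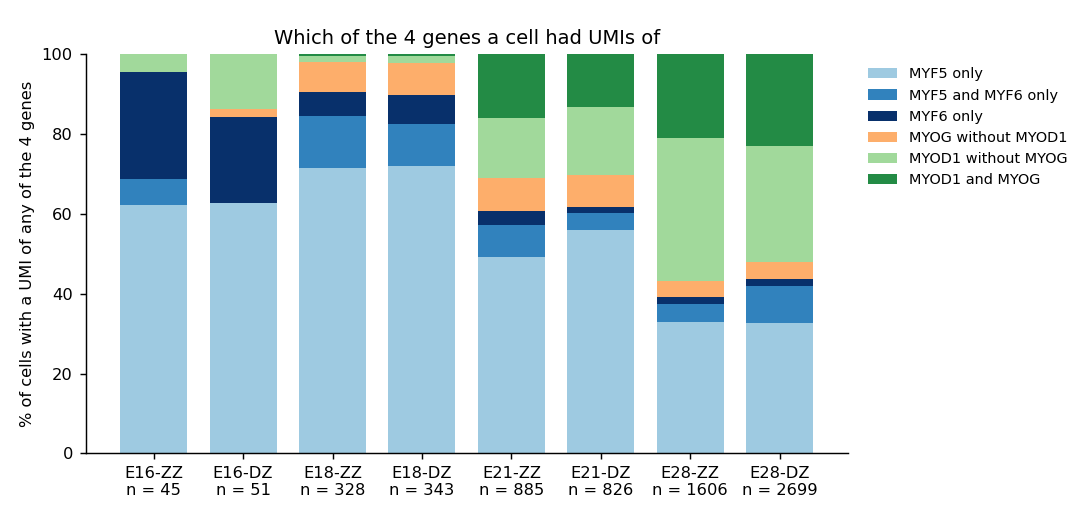
Share (%) of cells with a UMI of any member that fall in each of 6 detection patterns, by library; n is the number of positive cells. MYF5 only makes up 71.6% and 72.0% at E18 and 32.8% and 32.8% at E28, and the dark green share of cells with both MYOD1 and MYOG goes from 0.305% and 0.292% at E18 to 21.0% and 23.0% at E28.

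MYOG-positive cells at E18 were for the most part without a UMI of MYOD1. MYOD1 was found in 1 of 26 MYOG-positive cells of E18-ZZ (3.85%, interval 0.0973% to 19.6%) and in 1 of 29 of E18-DZ (3.45%, 0.0873% to 17.8%). At E21 it was found in 140 of 212 (66.0%) and 109 of 176 (61.9%), and at E28 in 338 of 402 (84.1%) and 622 of 741 (83.9%). The E18 intervals lay below those of E21, which lay below those of E28, in both breeds. The MYOG-positive cells had median totals of 7832.5 and 6605 UMIs at E18 (ZZ and DZ), then 5838 and 6804 UMIs at E21 and, last, 5612.5 and 4842 UMIs at E28, so in ZZ those of E18 were the deepest and in DZ those of E21. At 1500 UMIs per cell, MYOD1 was found in 1.70% and 0.592% of MYOG-positive cells at E18, in 39.0% and 31.6% at E21, and in 59.5% and 57.3% at E28. At E18, 88.5% and 65.5% of them carried at least 3 of 8 markers of differentiated muscle, none of which is a member of the family. Most of the E18 cells with MYOG had over 5% mitochondrial UMIs. At a limit of 5%, 2 (ZZ) and 9 (DZ) of them were left, 0 of them with MYOD1.

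Most MYOG-positive cells at E18 carried MYF5, and MYF6 was found in some of them in both breeds. MYF5 was found in 22 of 26 (84.6%) and 18 of 29 (62.1%) at E18, 118 of 212 (55.7%) and 96 of 176 (54.5%) at E21, and 178 of 402 (44.3%) and 438 of 741 (59.1%) at E28. MYF6 was found in 15 of 26 (57.7%) and 4 of 29 (13.8%) at E18, 56 of 212 (26.4%) and 37 of 176 (21.0%) at E21, and 47 of 402 (11.7%) and 142 of 741 (19.2%) at E28. The E18 libraries of the breeds differed in this last share beyond counting error, with intervals of 36.9% to 76.6% and 3.89% to 31.7%, but each breed had 1 library. In ZZ the share with MYF5 was lower at each later stage, with intervals of E21 and E28 that met, whereas the 3 DZ values had overlapping intervals.

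**Figure D3:**
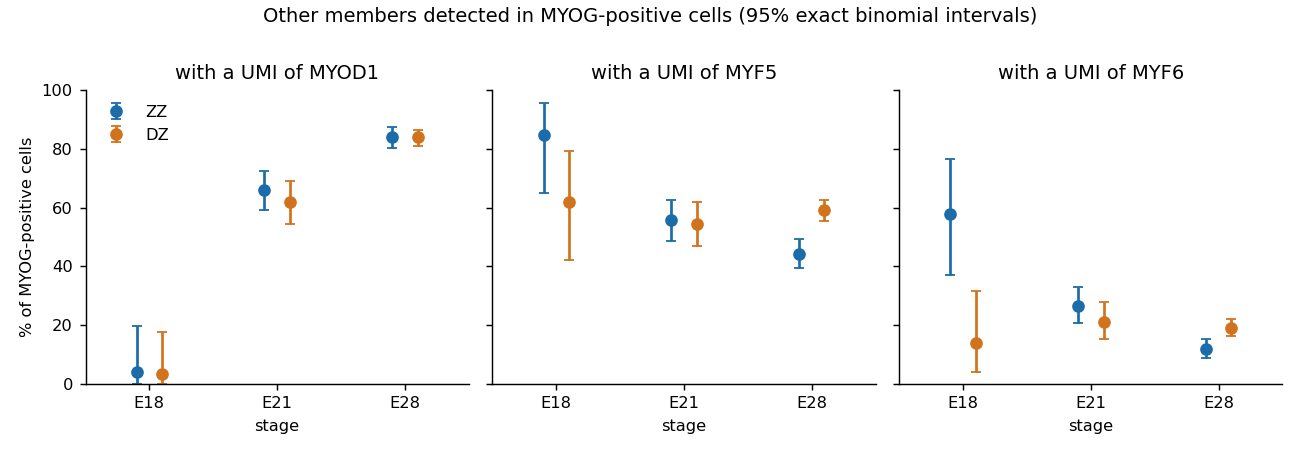
Share (%) of MYOG-positive cells with a UMI of MYOD1, MYF5 or MYF6, by stage and breed; bars are exact 95% binomial intervals. With MYOD1 the points climb from 3.85% and 3.45% at E18 to 84.1% and 83.9% at E28, while with MYF5 all points lie between 44.3% and 84.6%.

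From E18 on, most MYF6-positive cells also had MYF5 at full depth. At E16 MYF5 was found in 3 of 15 (ZZ) and 0 of 11 (DZ) of them. MYF5 was found in 57 of 79 MYF6-positive cells (72.2%) and 39 of 65 (60.0%) at E18, 123 of 176 (69.9%) and 74 of 107 (69.2%) at E21, and 153 of 208 (73.6%) and 500 of 608 (82.2%) at E28. MYOD1 was found in 2 of 79 and 0 of 65 MYF6-positive cells at E18, in 33.0% and 49.5% at E21, and in 48.6% and 49.5% at E28. In the reverse direction, over both breeds, MYF6 was found in 15.9% of 602 MYF5-positive cells at E18, 14.3% of 1379 at E21 and 20.1% of 3248 at E28. MYF5-positive cells with MYOD1 numbered 3 of 301 and 0 of 301 at E18, 158 of 702 (22.5%) and 141 of 677 (20.8%) at E21, and 490 of 1115 (43.9%) and 947 of 2133 (44.4%) at E28. In both breeds the overlap of MYF5 with MYOD1 thus widened from E18 to E28 while that of MYF6 with MYF5 stayed at 60.0% or more.

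Cells were then gated by markers other than the members: a cell entered a gate when it had UMIs of at least 3 of the 8 markers of 1 list and fewer of every other list. The muscle progenitor gate (PAX3, PAX7 and other progenitor genes) held 59 to 570 cells per library, and the differentiated muscle gate (MYMK, MYH3, CHRNA1 and others) held at most 2 at E16 and 66 to 695 cells from E18. In the progenitor gate MYF5 was found in 2 of 59 (ZZ) and 2 of 99 (DZ) cells at E16, in 37.1% and 29.2% at E18, 60.2% and 67.6% at E21 and, at E28, 79.4% and 91.2%. The E16 cells with MYF5 or MYF6 lay mostly outside the muscle gates. Of 31 (ZZ) and 32 (DZ) MYF5-positive cells at E16, 2 and 3 were in a muscle gate, and of 15 and 11 MYF6-positive cells, 1 and 0. The epithelial gate held 4 of these 15 and 10 of these 11 cells, and over the early libraries MYF6 was found in 19 of 4276 epithelial cells (0.444%, interval 0.268% to 0.693%). MYOD1 was found in none of the 711 early progenitor cells (exact interval up to 0.517%), in 10.8% and 8.50% at E21, and in 40.1% and 33.0% at E28. In the late progenitor cells of all libraries, 78.9% had MYF5, 26.1% MYOD1, 17.6% MYF6 and 6.47% MYOG.

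In the differentiated gate MYF5 was found in 86.4% and 59.1% at E18, 58.3% and 58.1% at E21 and, at E28, 42.5% and 59.1%. MYOD1 was found in 3 of 66 and 2 of 110 cells at E18, 65.3% and 55.9% at E21 and, at E28, 89.7% and 84.9%. MYOG was found in 30.3% and 15.5% at E18, 60.3% and 46.3% at E21 and, at E28, 70.0% and 68.3%. MYF6 was found in 60.6% and 31.8% at E18, 29.3% and 24.1% at E21 and, at E28, 13.4% and 20.7%. Within this gate MYOD1 and MYOG had higher shares at each later stage in both breeds. The share with MYF6 was lower at E28 than at E18, with separate intervals in ZZ (9.90% to 17.7% against 47.8% to 72.4%) and intervals that met in DZ (17.8% to 23.9% against 23.3% to 41.4%). At 1500 UMIs per cell MYF6 was found in 19.3% and 14.1% of cells at E18, 8.81% and 6.53% at E21 and, at E28, 4.01% and 7.09%, so E18 stayed highest in both breeds while in DZ the value of E28 was above that of E21. Of the cells with MYF5 alone at E18 to E28, 23.0% to 45.5% per library fell in either muscle gate, and 45.9% to 56.6% had at least 3 markers of a muscle list whatever their other markers. At least 3 connective tissue markers were found in 18.7% (E18-ZZ) to 73.2% (E28-ZZ) of the same cells. Among cells without any member these shares were 23.0% in E18-ZZ and 91.8% in E28-ZZ. Only in E21-ZZ was the share higher in cells with MYF5 alone (47.0%) than in cells without any member (35.6%).

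**Figure D4:**
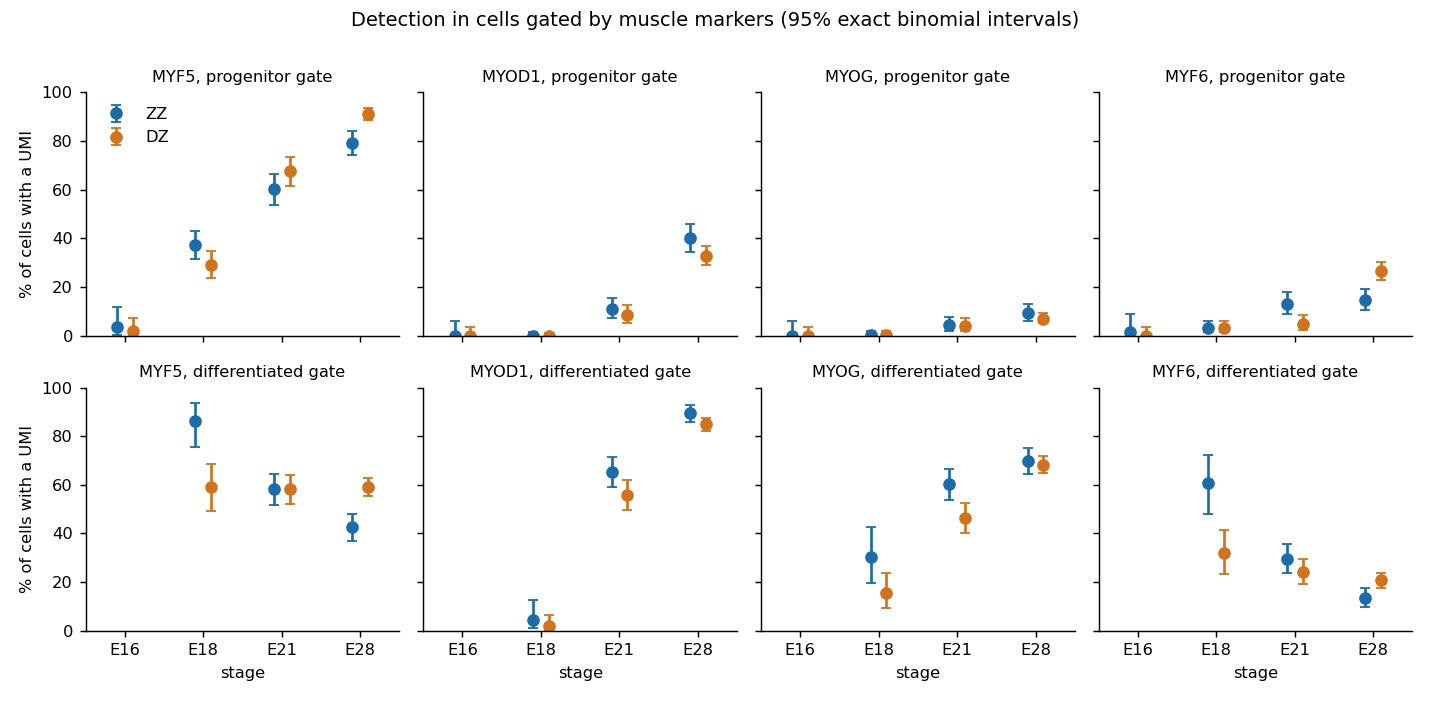
Share (%) of cells with a UMI of each member in the muscle progenitor gate (top) and the differentiated muscle gate (bottom), by stage and breed, with exact 95% binomial intervals. MYF5 climbs to 79.4% and 91.2% in the progenitor gate at E28, and in the differentiated gate MYOD1 climbs from 4.55% and 1.82% at E18 to 89.7% and 84.9% at E28 while MYF6 goes from 60.6% and 31.8% to 13.4% and 20.7%.

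How often pairs met in a cell was set against the number expected if detection of either gene were independent within the muscle gates of a library. In the 4 late libraries the observed to expected ratio of MYOD1 and MYOG was 1.77 ± 0.39 (mean ± SD over libraries, range 1.40 to 2.23). MYF5 and MYF6 met at a ratio of 1.16 ± 0.10 (1.06 to 1.27). Over both gates together the ratio of MYF5 was 0.92 ± 0.05 with MYOD1 (0.87 to 0.99) and 0.84 ± 0.09 with MYOG (0.74 to 0.93). At 1500 UMIs per cell the ratios of MYF5 with MYOD1 and MYOG were 0.70 and 0.62 and that of MYOD1 and MYOG was 2.11. In cells with at least 3 muscle markers whatever their other markers, MYF5 met MYOD1 at 1.02 (0.98 to 1.08) and MYOG at 0.91 (0.78 to 1.03) at full depth. Within the progenitor gate alone MYF5 and MYOD1 met at 1.02 and within the differentiated gate alone at 0.98, but at 1500 UMIs at 0.889 (3 libraries, 0.844 to 0.927) and 0.849 (0.701 to 0.944), below 1 in each library. MYF5 and MYOG met at 0.98 and 0.95 in these gates and at 1500 UMIs at 0.723 (2 libraries) and 0.827. MYOD1 and MYOG met at 1.19 in the differentiated gate, and at 1.34 at 1500 UMIs. A ratio cannot rise far above 1 where either gene is found in most cells of a gate. At E28 MYOD1 was in 287 of 320 (ZZ) and 590 of 695 (DZ) cells of the differentiated gate, with ratios of 1.06 and 1.09. MYF5 was in 520 of 570 cells of the progenitor gate in E28-DZ. MYOD1 and MYF6, at 1.28 ± 0.38, and MYOG and MYF6, at 1.27 ± 0.40, ranged across 1 between libraries. Both ratios were higher at E21 than at E28 in both breeds. MYOD1 and MYF6 met at 1.36 (ZZ) and 1.80 (DZ) at E21 and at 1.00 and 0.98 at E28. MYOG and MYF6 met at 1.47 and 1.74 at E21 and at 0.97 and 0.91 at E28. At 1500 UMIs per cell the means were 0.96 (0.86 to 1.06) and 0.95 (0.73 to 1.28) over 3 libraries, without E21-DZ. At E18 MYF5 met MYOG at ratios of 1.94 and 1.92 and MYF6 at 1.88 and 1.63 over both gates together. Within the differentiated gate alone the E18 ratios were 1.04 and 1.29 with MYOG and 1.04 and 1.16 with MYF6. MYF5 and MYOG met in the progenitor gate at 1.16 and 1.04 at E21 and at 0.872 and 0.850 at E28. The part of the difference between the gates in a ratio over both was not tested. No test was made on these ratios, since cells of 1 library are not replicates.

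Other genes were compared between classes of cells that the members define, with UMIs summed per class and library, the library as a block, and the 4 members left out of the test. MYOG-positive cells were compared with cells positive for MYF5 alone in the 6 libraries from E18 on. MYOG-positive cells had the higher median total in each of these libraries (4842 to 7832.5 UMIs against 4000 to 7463). All 25 contractile genes tested were higher in MYOG-positive cells, with a median log2 difference of 4.42 against -0.04 over all genes. With the classes drawn again at 1500 UMIs per cell, all 25 were called. The comparison called 34.6% of 10464 genes, 16.6% higher and 18% lower. MYH8, a myosin heavy chain of developing muscle, was higher by 5.61 ± 0.21 on the log2 scale (edgeR adjusted p = 4.23e-10), and NEB, the thin filament ruler nebulin, by 2.84 ± 0.13 (edgeR adjusted p = 7.26e-10). MYMK, the membrane protein needed for myoblast fusion, measured 60.6, 97.6, 63.6, 59.7, 35.4 and 67.3 CPM in MYF5-only cells of the 6 libraries, in the order of stage with ZZ before DZ. In MYOG-positive cells of the same libraries MYMK measured 903.6, 717.1, 1053.8, 1007.4, 1039.6 and 1193.8 CPM. Every MYOG-positive value was above every MYF5-only value, and the log2 difference was 4.18 ± 0.20 (edgeR adjusted p = 1.63e-09).

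Progenitor regulators stood lower in MYOG-positive cells. Of 13 upstream regulators tested, 9 were lower and 2 higher (median -0.77). Of the lower ones, DACH1 (-0.77) lost its call in 5 of 14 alternatives (-0.12 at 1500 UMIs per cell) and EYA1 (-0.62) in 4 of 14. PAX3, a paired-box factor of muscle progenitors, measured 133.9, 138.8, 100.7, 85.0, 58.9 and 45.4 CPM in MYF5-only cells and 30.9, 36.1, 14.7, 19.1, 11.8 and 9.17 CPM in MYOG-positive cells, a log2 difference of -2.11 ± 0.12 (edgeR adjusted p = 6.52e-09). DMRT2, a dermomyotome factor upstream of MYF5, differed by -2.30, PAX7 by -1.83 and MEOX1 by -1.38, whereas EYA2, a transcriptional coactivator, was higher by 2.83. PAX7 in MYF5-only cells was 39.3 and 45.4 CPM at E18 and 167.5 and 178.8 CPM at E28, while PAX3 ran the other way over the same libraries. Of 12 inhibitors of helix-loop-helix factors tested, 7 were lower and 3 higher (median -0.63). HEY1, a Notch target, differed by -2.30, musculin (MSC) by -2.37, ID2 by -1.30, MDFI, which sequesters myogenic factors, by -0.91, and HEYL, also a Notch target, by 1.37. Of the 3 E-protein partners, TCF12 was higher by 0.50 (edgeR adjusted p = 0.0013) and neither TCF3 nor TCF4 passed the test.

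Among 10 coactivators tested, 6 were higher and none lower. MEF2C, which activates muscle genes together with the family, was higher by 3.84 ± 0.19 (edgeR adjusted p = 2.11e-09), MEF2D by 1.94, MEF2A by 1.55, and SMARCD3, a chromatin remodeller subunit, by 0.95. Of 11 fusion and adhesion genes, 6 were higher and 4 lower: beside MYMK, JAM3 was higher by 1.82, ITGA7, a laminin receptor chain, by 2.50 and CDH15 (M-cadherin) by 1.40, and CDH2 (N-cadherin) lower by 1.52 on the log2 scale. The calls of JAM2 (0.63) and NEO1 were lost in 5 and 9 of 14 alternatives. Of 5 nerve contact genes, CHRNA1, a subunit of the muscle acetylcholine receptor, was higher by 4.08, MUSK by 2.21 and CHRNB1 by 0.85, and AGRN differed by -1.35. MEF2C and CHRNA1 were higher in MYOG-positive than in MYF5-only cells in each of the 6 libraries.

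Cell cycle genes moved in both directions. Of 8 genes of cell cycle exit tested, 4 were higher and 2 lower. The lower calls were lost in 3 of 14 alternatives for GADD45A (-0.76, and -0.40 without E28-DZ) and in 5 of 14 for RBL1. CDKN1C (p57) measured 280.1, 267.8, 323.5, 277.2, 410.8 and 479.3 CPM in MYF5-only cells and 1410.4, 1190.6, 1713.8, 1791.9, 2439.0 and 1924.4 CPM in MYOG-positive cells (log2 difference 2.54 ± 0.10, edgeR adjusted p = 3.14e-10). CDKN1A (p21) was higher by 4.57 and GADD45G by 2.32. Of 16 proliferation genes, 14 were lower and 1 higher (median -0.998). PCNA, the replication clamp, MCM5 and MCM3, helicase subunits, differed by -1.11 each and CENPF by -1.10, while the cyclin CCND2 was higher by 0.74. Of 10 genes of the Notch pathway, 6 were lower and 4 higher, with NOTCH3 at -1.81, LFNG at -1.29, NOTCH2 at -0.91 and HES6 at 1.45. Of 10 growth factor receptors and ligands, 4 were higher and 2 lower, with FGFR1 at -0.60, MET at -1.02, ERBB3 at 0.35, MSTN at 0.68 and IGF1R at 0.51. The call of MSTN was lost with the classes drawn again at 1500 UMIs per cell (0.20) and without E21-ZZ (0.56) or E28-DZ (0.46), and that of IGF1R without E21-DZ (0.49), E28-ZZ (0.37) or E28-DZ (0.52).

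The genes with the largest differences among those called with at least 100 UMIs were CACNG1 (6.53), a calcium channel subunit of skeletal muscle, ITGB6 (6.51), CPS1 (6.32), a urea cycle enzyme, MZB1 (5.91), NRN1L (5.86) and MYOZ2 (5.84), a protein of the Z-disc. MYOZ2 rested on 3227 UMIs and the other 5 on far fewer, down to 105 for ITGB6. The lowest were the chemokine CXCL14 (-4.13), the protease ADAMTS16 (-3.87), the channel subunit KCNS3 (-3.69), SPARCL1 (-3.23), the Wnt modulator DKK2 (-2.85) and ADAMTS15 (-2.81). By DESeq2 the calls of CPS1 (5.58) and KCNS3 (-2.71) were lost. Markers of other cell types moved with the classes: all 8 connective tissue markers were lower in MYOG-positive cells (median -1.24), as were all 3 epithelial markers tested, 4 of 6 neuron markers with 2 higher, 2 of 6 sclerotome markers, 1 of 4 endothelial markers and the 1 erythroid marker tested, while 1 of 2 neural crest and glia markers was higher and none of the macrophage, neural tube or lateral mesoderm markers passed. Both cardiac markers tested, which are also contractile genes, were higher (TNNT2 by 4.61 and MYH7 by 3.73). The part of other cell types in these differences was not tested. With the classes taken from the muscle gates alone, 3204 genes were called.

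Cells with MYOD1 and without MYOG had more contractile gene UMIs per total than MYF5-only cells. They were compared with MYF5-only cells in the 4 late libraries, where 6.09% of 10697 genes were called, 3.98% higher and 2.1% lower. The cells with MYOD1 had the higher median total in each of these libraries (4740 to 7201.5 UMIs against 4000 to 5961). Of 24 contractile genes tested, 23 were higher (median 3.66), with MYH3, the embryonic myosin heavy chain, at 4.35 ± 0.15 (edgeR adjusted p = 1.68e-09), TNNT2 at 4.14, MYBPH at 4.36, MYBPC1 at 4.15 and TNNI1 at 3.02. MYMK measured 477.5, 381.4, 216.5 and 333.0 CPM in these cells in the 4 libraries, again ordered by stage with ZZ first, above each MYF5-only value and below each MYOG-positive value (log2 difference from MYF5-only cells 2.68 ± 0.09, edgeR adjusted p = 1.68e-09). None of the 17 proliferation genes passed the test, with log2 differences from -0.34 to 0.34. CDKN1A was higher by 3.43, CDKN1C by 1.47 and GADD45G by 1.31, and these were the 3 of 9 genes of cell cycle exit that were called. CDKN1C measured 1014.9, 887.5, 976.6 and 989.8 CPM in the 4 libraries.

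Among 13 upstream regulators, 4 were lower and 2 higher: EYA2 was higher by 1.74 and EYA4 by 0.81, and DMRT2 differed by -1.02, PAX3 by -0.64, MEOX1 by -0.51 and PAX7 by -0.47. PAX7 measured 54.4, 58.7, 137.9 and 134.5 CPM, below MYF5-only cells in each of the 4 libraries. Of 12 inhibitors, MSC (-0.62), HEY1 (-0.74) and ID2 (-0.30) were lower and none higher. Of 11 coactivators, MEF2C was higher by 2.65 (edgeR adjusted p = 3.3e-06), MEF2D by 0.72 and SMARCD3 by 0.35. Of 11 fusion and adhesion genes 4 were higher and 3 lower, of 5 nerve contact genes 2 were higher and 1 lower (CHRNA1 at 2.69, MUSK at 1.32, AGRN at -0.42), of 9 Notch genes 1 was higher and 2 lower (HES6 at 0.72, NOTCH3 at -0.67, HEY1 as above), and of 10 receptors and ligands MSTN alone passed, at 0.48. None of the 3 E-protein partners passed. The 3 lower adhesion genes were CDON (-0.59), CDH2 (-0.58) and BOC (-0.49). With 1 library left out, calls were lost by CDON without E21-DZ or any 1 of the E28 libraries, by CDH2 without E28-DZ or any 1 of the E21 libraries, by BOC without E28-DZ, by MEOX1 without E21-DZ, by MEF2D and ID2 without E21-ZZ, E21-DZ or E28-ZZ, by EYA4 without E21-ZZ, E21-DZ or E28-DZ, by SMARCD3 without E21-ZZ or any 1 of the E28 libraries, by AGRN without E21-DZ or any 1 of the E28 libraries, and by MSTN without any 1 of the 4 (0.30 to 0.64). By DESeq2 each of these genes lost its call. At a mitochondrial limit of 5% the calls of CDON, BOC, MEOX1, MEF2D, AGRN and MSTN were lost. With no doublets removed those of AGRN, CDH2, EYA4 and ID2 were lost, and with the classes from the muscle gates alone that of CDON.

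The genes highest in MYOD1-positive MYOG-negative cells were CAV3 (4.86), the caveolin of muscle, CASQ2 (4.84), KLHL31 (4.75), GJA5 (4.65), a connexin, MYOM1 (4.57) of the M-band and MYOT (4.56) of the Z-disc, each called with at least 100 UMIs. The lowest were KRT18 (-2.59), ISL1 (-2.48), C1QB (-2.46), KCNS3 (-1.84), HES4 (-1.47) and KRT8 (-1.41). KRT18 and KRT8 are keratins of simple epithelia, ISL1 a factor of motor neurons and C1QB a complement gene of macrophages. Of the markers of other cell types tested, 5 of 8 for connective tissue, both for epithelium, the 1 for macrophages and 1 of 7 for neurons were lower, and none of 7 for sclerotome or 5 for endothelium passed, while the cardiac and contractile genes TNNT2 and MYH7 were higher (4.14 and 4.44). Their part in the result was not tested. With the classes drawn again at 1500 UMIs per cell, the difference of KRT18 turned to 0.24 (edgeR adjusted p = 0.924), and C1QB (-0.12) and KRT8 (-0.32) lost their calls. Without E28-DZ the calls of C1QB (-1.55), ISL1 (-1.61) and HES4 (-1.20) were lost, and by DESeq2 those of these 3 and of KCNS3. The number of genes called in this comparison, 651, was 1506 at 1500 UMIs per cell, 350 by DESeq2 and 414 without the E28-ZZ library.

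MYF6-positive cells were compared with the other positive cells of the 6 libraries from E18 on, where 5.01% of 10460 genes were called, 4.14% higher and 0.87% lower. All 25 contractile genes tested were higher (median 2.17), with MYBPC1 at 2.48 ± 0.18 and MYH7, the slow myosin heavy chain, at 2.73 ± 0.20 (edgeR adjusted p = 5.21e-06 each), TNNC1 at 2.62, MYOM1 at 2.29 and MYL4 at 2.51. MYF6-positive cells had the higher median total in each of the 6 libraries (4767 to 7876 UMIs against 4411 to 7456), and with the classes drawn again at 1500 UMIs per cell, which left 23 to 234 MYF6-positive cells per library in place of 65 to 608, 19 of the 25 contractile genes were called. Those lost were MYH8 (0.93), ACTN2 (0.49), TNNT1 (0.78), TPM1 (0.40), TPM2 (0.59) and CKM (1.02). MEF2C was higher by 1.98 (edgeR adjusted p = 4.0e-05) and MEF2A by 0.89, as 2 of 9 coactivators. MUSK, at 1.34, and CHRNA1, at 1.21, were the 2 of 5 nerve contact genes called, and ITGA7, at 1.69, and NCAM1, at 0.42, the 2 of 11 fusion and adhesion genes. At 1500 UMIs per cell the calls of MEF2A (0.39), MUSK (0.69), CHRNA1 (0.29), ITGA7 (1.58) and NCAM1 (0.35) were lost. MYMK differed by 1.08 ± 0.31 without passing the test (adjusted p = 0.0669), and it measured 568.0 and 510.9 CPM in MYF6-positive cells at E18 against 83.7 and 141.2 CPM in the others, and 323.8 and 495.5 against 396.9 and 514.8 CPM at E28.

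Calls among progenitor and cell cycle genes stand beside the 5.01% of all genes called in this comparison. PAX3, at -0.73, and DMRT2, at -0.77, were the 2 of 13 upstream regulators called, ID2 (-0.47), MDFI (-0.33) and ID1 (-0.34) the 3 of 12 inhibitors, CDKN1A, at 1.55, the 1 of 8 genes of cell cycle exit, JAG2, at 1.74, the 1 of 10 Notch genes and MSTN, at 0.57, the 1 of 10 receptors and ligands. None of 16 proliferation genes and none of 3 E-protein partners passed. Of these calls that of JAG2, which was not among the genes tested at 1500 UMIs per cell, was lost without E21-ZZ (1.74). The others were lost at 1500 UMIs, where PAX3 differed by -0.28, DMRT2 by -0.46, ID2 by -0.20, MDFI by -0.22, ID1 by -0.23, CDKN1A by 0.59 and MSTN by 0.18. The genes highest in MYF6-positive cells were COL22A1 (3.25), a collagen of the myotendinous junction, XIRP2 (3.07), TRDN (2.91) of the calcium release unit, TNNC2 (2.83), MYH8 (2.81) and ACTA1 (2.80), and the lowest were C1QB (-5.37), MIA (-2.76), PRPH (-2.74), SNCG (-2.34), SNORC (-2.32) and ISL1 (-2.18). By DESeq2 the calls of C1QB (-1.07), MIA (-1.50), PRPH and SNORC were lost, and with no doublets removed those of ISL1 (-0.51) and SNCG (-1.15). Of the markers of other cell types tested, 4 of 8 for connective tissue, 2 of 5 for sclerotome, the 1 for macrophages and 1 of 6 for neurons were lower, 1 of 4 for epithelium, 1 for neurons and both cardiac ones (TNNT2 at 2.01 and MYH7 at 2.73, also contractile genes) were higher, and their part in the result was not tested. With 1500 UMIs per cell 102 genes were called, and without the E21-ZZ library 322.

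**Figure D5:**
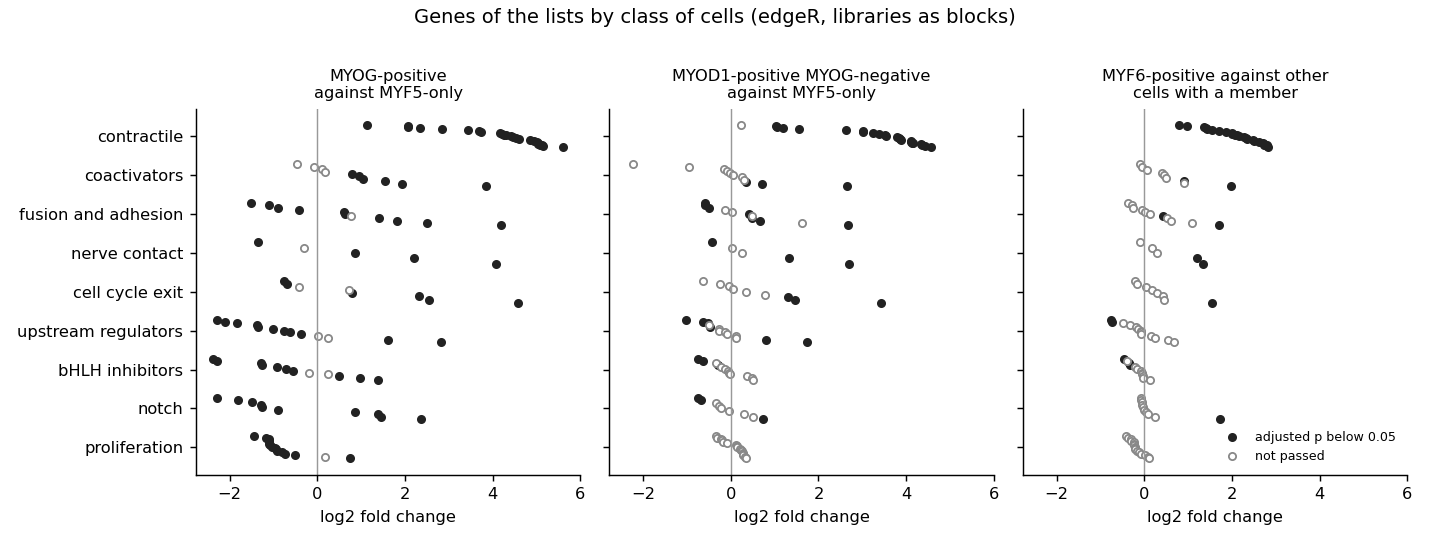
Log2 fold change of each tested gene of 9 lists (rows) in the comparisons of MYOG-positive cells (left) and of MYOD1-positive MYOG-negative cells (middle) with MYF5-only cells, and of MYF6-positive with the other positive cells (right); filled points passed an adjusted p below 0.05. All contractile genes lie above 0 in each panel, with medians of 4.42, 3.66 and 2.17, and of the proliferation genes 14 are called lower at left and none in the other panels. Of all genes tested, 34.6% were called at left, 6.09% in the middle and 5.01% at right.

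The same detection pattern went with different genes at different stages. Cells with MYF5 and MYF6 and neither MYOD1 nor MYOG numbered 42, 36, 71, 34, 74 and 248 from E18-ZZ to E28-DZ. In them MYH3 measured 585.9 and 506.6 CPM at E18, 480.6 and 1266.9 CPM at E21, and 11.8 and 13.9 CPM at E28, and MYMK 515.0 and 582.1, 134.9 and 245.5, and 21.3 and 87.8 CPM. PAX7 in the same cells measured 5.45 and 4.44 CPM at E18, 68.7 and 96.4 CPM at E21, and 182.2 and 203.5 CPM at E28. At E18 these cells thus had more MYH3 than MYOG-positive cells (392.3 and 401.4 CPM) and less MYMK, and at E28 they had slightly more PAX7 than MYF5-only cells and less MYH3 (MYF5-only 16.2 and 27.3 CPM). The share with at least 3 markers of differentiated muscle was 59.5% and 61.1% at E18 and 13.5% and 17.7% at E28, against 26.2% and 22.2%, then 63.5% and 65.3%, with at least 3 progenitor markers. This change with stage was seen in both breeds and was not tested.

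MYOG-positive cells without MYOD1 also differed by stage. At E18 they were 25 and 28 cells with 926.0 and 680.3 CPM of MYMK and 426.7 and 335.5 CPM of MEF2C. At E21 and E28 MYMK measured 650.4, 407.0, 256.9 and 582.6 CPM in the MYOG-positive cells without MYOD1 and 1207.4, 1269.3, 1153.6 and 1282.5 CPM in those with it. In each of the 4 late libraries MYMK was thus lower where MYOD1 was not detected, and the cells without MYOD1 were shallower, with medians of 4838.5, 5778, 4743.5 and 3869 UMIs against 6362, 7572, 5781.5 and 4976 UMIs. The part of depth in this difference was not tested.

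The level of MYF5 differed by stage within the classes. In MYOG-positive cells it measured 427.5 and 311.2 CPM at E18, 182.9 and 160.3 CPM at E21 and 164.5 and 260.2 CPM at E28, and in cells positive for MYF5 alone, which hold it by definition, 246.1 and 217.6, 498.8 and 422.2, and 553.7 and 849.0 CPM. These classes are not compared, since MYF5-only cells were chosen for a UMI of MYF5 and MYOG-positive cells were not. Within MYOG-positive cells the level of MYF5 was highest at E18 in both breeds. MYOG in its own positive cells measured 132.2 and 148.8 CPM at E18 and 345.6 and 370.9 CPM at E28, and MYOD1 in MYOG-positive cells 325.8 and 270.9 CPM at E21 and 622.7 and 525.4 CPM at E28. MYOG-positive cells hold at least 1 UMI of MYOG by definition, which sets a floor in CPM that is higher in shallower cells. They were shallower at E28 than at E18 and held means of 1.15 and 1.14 UMIs of MYOG at E18 and 2.18 and 2.18 at E28. The part of depth in the stage difference of MYOG was not tested.

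Likeness of pattern was measured as the Pearson correlation of log2(CPM + 1) over 69 sums of gate and library with at least 50 cells, a description over points that share libraries and gates. MYOG was most like MYMK (0.962), MUSK (0.961), CHRNA1 (0.959), COL19A1 (0.952) and SGCA (0.947). MYOD1 was most like VGLL2 (0.927), a cofactor of TEAD factors, MYOG (0.922), MUSK (0.915), COL19A1 (0.904) and SGCA (0.900), a sarcoglycan. MYF5 was most like CDH15 (0.896), MYF6 (0.892), SGCA (0.871), NEB (0.864) and MUSK (0.854), and MYF6 like SGCA (0.902), MYMK (0.901), COL19A1 (0.900), NEB (0.899) and MUSK (0.896). Within the family, MYF5 correlated at 0.892 with MYF6 and at 0.792 with MYOD1, and MYOG at 0.922 with MYOD1 and at 0.879 with MYF6. MYMK, CHRNA1 and CDH15 were themselves gate markers.

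Between breeds no difference of the family was detected over the 4 stages. The DZ minus ZZ log2 difference in level was 0.21 ± 0.28 (SE) for MYF5, 0.14 ± 0.16 for MYOD1, 0.29 ± 0.24 for MYOG and 0.08 ± 0.44 for MYF6, with edgeR adjusted p-values of 0.921, 0.906, 0.853 and 0.986. In that fit 0% of 15119 genes were called by edgeR, with 917 at an unadjusted p below 0.05, and 57 were called by DESeq2. The difference in the share of positive cells was 2.14 percentage points for MYF5 (exact permutation p = 0.5, DZ higher at 2 of 4 stages), 0.920 for MYOD1 (exact p = 0.125, 4 of 4), 0.655 for MYOG (exact p = 0.625, 3 of 4) and 0.652 for MYF6 (exact p = 1, 1 of 4), where no exchange of breeds within stages can give a p below 0.125. The means rested on E28, where DZ had the higher share of every member. Without either E28 library the difference fell to 0.126 for MYF5 and 0.0417 for MYOD1, and it turned to -0.0247 for MYOG and -0.279 for MYF6. At E28 the breeds differed beyond counting error in all 4 genes, for example in MYF6 with intervals of 1.83% to 2.41% in ZZ and 5.13% to 5.99% in DZ, but 1 pool of each breed was measured. The interaction of breed and period was tested in a fit without a term for stage, so differences between the stages of a period add to its errors. No difference between breeds in the change from early to late was detected in it for MYF5 (1.22 ± 1.98 on the log2 scale), MYOD1 (-0.09 ± 1.68), MYOG (0.41 ± 2.08) or MYF6 (1.20 ± 1.62). The edgeR adjusted p was 0.999933 each, with 0 genes called by edgeR and 124 at an unadjusted p below 0.05, and the errors leave room for sizeable differences.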

How the data were processed

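From collagenase-digested tissue the authors made droplet libraries (10x Genomics, 3′ v3) and counted UMIs with Cell Ranger against Sscrofa11.1 and Ensembl release 98. The deposited values are whole-number UMI counts per gene and barcode, not normalized, from Cell Ranger 3.1.0 for the 2 E16 matrices and 3.0.2 for the other 6 per the file headers. Of 90688 barcodes, those with at least 200 genes, at most 30000 UMIs and at most 10% mitochondrial UMIs were kept, and 8247 with the highest Scrublet doublet scores (scanpy 1.11.5, 0.8% per 1000 barcodes) were removed, leaving 74147 cells. Counts were summed per library, or per class and library where at least 20 cells were found, and tested with edgeR 4.0.16 (quasi-likelihood, TMM, genes kept by filterByExpr, Benjamini-Hochberg adjustment over all genes tested, threshold 0.05). Whole-library fits held stage and breed, except the interaction fit and an alternative late against early fit, which held period in place of stage. Class fits held the library. On simulated counts 96% of 2-fold changes were recovered in the late against early fit (14857 genes) and 98% in the fit of MYOG-positive against MYF5-only cells (10025 genes). In these simulations 200 genes were changed, and 22 and 24 unchanged genes were called. The recovered shares do not give that of a single member such as MYF6, whose late against early SE was 0.45. Shares were compared by exact permutation over libraries, and breeds by exchange within a stage. Alternatives were other cell filters, thinning to 1500 UMIs, DESeq2 1.42.0 and its size factors, no gene filter, and leaving out libraries. The members and lists were chosen with earlier results of these data known. Genes outside the family were named as the 6 called with the largest and the 6 with the lowest log2 difference, a symbol and at least 100 UMIs, and, per list, members with the smallest adjusted p; other genes whose class levels are given were chosen after their values were seen. Symbols were added for 680 genes from RefSeq names. Some list genes (such as TTN, MYMX and MKI67) were not analysed here.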

Additional observations from a re-analysis of the deposited data

Results flagged for a closer look

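Among the 4 late libraries, the MYF6 level of E28-DZ stood far from the others, at 19.7 CPM against 3.27, 5.72 and 5.84 CPM, and 608 cells were positive there against 107 to 208. With 18 groups of libraries examined, chance gives about 1 such case in 20. The barcodes left out for more than 10% mitochondrial UMIs held 232 UMIs of the 4 genes in all, 54 of them in E28-DZ, 72 in E28-ZZ and 24 in E16-ZZ, which had the largest share of such barcodes.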

How the results depend on the processing

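The level differences of the 4 genes between late and early kept their direction and call under all 17 alternatives run for each, from 2.50 to 4.73 (log2) for MYF5, 6.68 to 8.35 for MYOD1, 4.62 to 8.43 for MYOG and 1.77 to 3.49 for MYF6. The late minus early shares kept their direction throughout and lost the threshold where an early library was left out (exact permutation p 0.0571 to 0.0857, with fewer splits). With single libraries left out they ranged from 6.62 to 10.9 percentage points for MYF5, 4.80 to 8.19 for MYOD1, 2.52 to 4.14 for MYOG, 1.17 to 2.63 for MYF6 and 4.34 to 7.94 for cells with at least 2 members. Without the E16 libraries they were 7.99, 6.78, 3.40, 1.85 and 6.29 (p = 0.133, for MYF6 0.267, by exact permutation), and without the E28 libraries 5.20, 2.61, 1.82, 0.940 and 2.73 (exact permutation p = 0.0667, the smallest that 15 splits allow in both cases). At a mitochondrial limit of 5% the steps of MYF5 from E16 to E18 (3.06) and E21 to E28 (1.42) and of MYOG over the same stages (3.03 and 1.43) lost their calls, as did steps between stages with single libraries left out.

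Calls between MYOG-positive and MYF5-only cells ranged from 2528 to 3848. For MYOD1-positive MYOG-negative cells, 651 calls became 1506 at 1500 UMIs per cell and 350 with DESeq2, and 414 to 561 with single libraries left out (414 without E28-ZZ). For MYF6-positive cells, 524 calls became 102 at 1500 UMIs, 845 without a filter on low counts, and 322 to 593 with single libraries left out (322 without E21-ZZ). At 1500 UMIs KRT18 turned to 0.24 in MYOD1-positive MYOG-negative cells (edgeR adjusted p = 0.924). At 1500 UMIs 18 list or named genes lost their call in the comparison of MYF6-positive cells, and 3 in each of the others. The cause of these shifts was not tested. Calls of single genes on the lists were less stable: in 4 or more of up to 14 alternatives run for each, the call was lost by 8 of 111 called genes in the comparison of MYOG-positive cells (NEO1 in 9, FST and KAT2B in 6, DACH1, JAM2 and RBL1 in 5, EYA1 and SNAI1 in 4), by 9 of 62 in that of MYOD1-positive MYOG-negative cells (MSTN, AGRN and CDON in 6, CDH2, EYA4, ID2 and MEF2D in 5, SMARCD3 and ISL1 in 4), and by 5 of 48 in that of MYF6-positive cells (ID1 in 8, NCAM1 in 6, MDFI, MSTN and CKM in 4).

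The ratio of MYF5 with MYOD1 was 0.70 at 1500 UMIs, 1.02 in the progenitor gate, 0.98 in the differentiated gate and 1.02 in cells with 3 muscle markers whatever their other markers, an alternative chosen after seeing the data. MYF5 with MYOG was 0.62 at 1500 UMIs, 0.98 in the progenitor gate and 0.95 in the differentiated gate. At 1500 UMIs within these gates, MYF5 with MYOD1 was 0.889 and 0.849 and with MYOG 0.723 and 0.827. MYOD1 with MYOG was 2.20 in the progenitor gate (2 libraries) and 1.19 in the differentiated gate, and MYOG with MYF6 was 0.74 in the progenitor gate. Depth limits detection: most cells with MYF6 held 1 UMI. No pairing by replicate number was possible, because each group holds 1 library and all carry the same number. Pairing by stage was used in the breed fit and the exchange of breeds, and by library in the class comparisons.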
